A study of Homo sapiens with 6 samples.

Results

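Fatty acid synthesis and desaturation was examined through 10 genes, namely SREBF1, ACLY, ACACA, FASN, ELOVL1, ELOVL5, ELOVL6, SCD, FADS1 and FADS2. They were chosen by name, with earlier results of these data known. Each matched 1 of the 50868 genes in the deposited expression table. RNA-Seq had been performed on HCT116, an established human colorectal cancer cell line, with 3 samples transfected with pcCon (the empty plasmid pcDNA3.1(+)) and 3 transfected with pcYY2, which carries the coding region of the zinc finger transcription factor YY2. Both groups were of the same cell line. Transfection used a cationic lipid reagent, and the share of cells that took up a plasmid was not given in the sources used here. In RNA from a whole culture, a change in some of the cells and a smaller change in all of them cannot be told apart.

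Cells build fatty acids from citrate. ACLY (ATP citrate lyase) splits citrate into acetyl-CoA, ACACA (acetyl-CoA carboxylase alpha) turns acetyl-CoA into malonyl-CoA, and FASN (fatty acid synthase) joins these units into palmitate. Elongases of the ELOVL family lengthen the chain, SCD (stearoyl-CoA desaturase) puts the first double bond into saturated chains, and FADS1 and FADS2 add double bonds to polyunsaturated chains. SREBF1 encodes SREBP-1, a membrane-bound transcription factor that is escorted by SCAP, held back by the INSIG proteins, cut free by the proteases encoded by MBTPS1 and MBTPS2, and known to drive transcription of these enzymes. Monounsaturated chains made by SCD resist peroxidation, whereas polyunsaturated chains are the substrate of lipid peroxidation, which is why this pathway is of interest in a study of ferroptosis.

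Between 15158360 and 29572882 reads were counted per sample, the deepest sample (pcYY2 sample 2) holding 1.95 times the counts of the shallowest (pcCon sample 3). FPKM, the count scaled to the length of the gene and to the total of the sample, is used below for levels, because it allows genes of different length to be compared. YY2 itself, the check of the labels, had FPKM values of 2.22, 2.52 and 1.73 in pcCon and of 11.6, 11.1 and 11.0 in pcYY2. These counts do not separate plasmid transcripts from those of the chromosomal YY2 gene. Of 7 markers of colon epithelium, EPCAM, CDH1, KRT8, KRT18, KRT19 and CDX2 were expressed and VIL1 had at most 2 reads in a sample. Their summed FPKM was 301 to 314 in pcCon and 393 to 429 in pcYY2, with KRT8 and KRT19 higher in pcYY2 (log2 fold change 0.67 and 0.60, edgeR's adjusted p = 0.0117 and 0.00209). EPCAM, CDH1 and KRT18 had log2 fold changes of 0.10, 0.22 and 0.13 and CDX2 one of -0.06, with edgeR's adjusted p between 0.139 and 0.733. The shift of KRT8 and KRT19 moved in the same direction as the lipid genes below, and its part in their values was not tested. The summed FPKM in any sample was at most 0.453 for the leukocyte markers, 0.157 for those of endothelium, 0.0871 for adipocytes and 0.0867 for hepatocytes. Of the fibroblast markers, DCN and LUM had no read and COL1A1 had a mean FPKM of 2.04 in pcCon and 2.49 in pcYY2.

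The bases upstream of the transcription start are shown for SREBF1, SCD and ACLY, of the genes that rose in pcYY2 those whose upstream bases lie mostly outside annotated exons. They come from RefSeq, on the build GRCh38.p14, and lie before its transcription starts. The stretch of ACLY lies inside the span of the gene in the deposited table, and that of SCD does so in part. SREBF1 is shown on chr17:17837003-17837236 (minus strand), SCD on chr10:100346983-100347232 (plus strand) and ACLY on chr17:41919023-41919201 (minus strand), each read 5′ to 3′ along the gene. Capitals mark the letters CCAAT or, on the other strand, ATTGG, the box bound by NF-Y, a partner of SREBP on many promoters.

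SREBF1: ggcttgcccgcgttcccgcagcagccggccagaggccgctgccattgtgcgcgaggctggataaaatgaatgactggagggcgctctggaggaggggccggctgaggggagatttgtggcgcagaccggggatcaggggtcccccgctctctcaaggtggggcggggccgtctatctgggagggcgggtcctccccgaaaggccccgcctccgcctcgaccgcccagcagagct

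SCD: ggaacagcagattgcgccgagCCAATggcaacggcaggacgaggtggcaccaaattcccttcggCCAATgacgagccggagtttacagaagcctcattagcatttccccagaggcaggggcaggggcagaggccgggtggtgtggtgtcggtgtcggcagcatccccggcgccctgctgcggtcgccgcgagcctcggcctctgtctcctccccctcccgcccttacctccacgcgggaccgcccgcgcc

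ACLY: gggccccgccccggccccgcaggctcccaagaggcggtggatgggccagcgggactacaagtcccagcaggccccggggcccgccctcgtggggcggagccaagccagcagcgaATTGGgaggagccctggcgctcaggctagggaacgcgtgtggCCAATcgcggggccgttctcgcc

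SCD held CCAAT at -229 to -225 and at -186 to -182 from its start. ACLY held ATTGG at -136 to -132 and CCAAT at -94 to -90, and SREBF1 held neither in this stretch. Promoters of 9 of the 10 genes (not FASN) were matched in RefSeq's table, and in the 250 bases before the start CCAAT (either strand) occurred in 5 of the 9, namely SCD, ACACA, ACLY, ELOVL1 and ELOVL5. Some of these genes have several windows, and by window it was in 7 of 13, as against 32.0% of all 35116 promoters. The windows of ACLY overlap and hold the same boxes, so these are counted in both. The sterol regulatory element written as TCACNCCAC, the site of SREBP, was in none of the 9 and in 0.883% of all promoters. CGCCAT, the core of the motif that YY1 and YY2 share, was in 1 of the 9, ELOVL5, at -56 to -51, and in 6.50% of all promoters. The E-box CACGTG was likewise in ELOVL5 alone (6.34% of all promoters). Only 21 of the 250 bases of ELOVL5 lie before its outermost annotated exon, and none of its matches falls among them. These are matches of letters within a window of fixed length and say nothing of binding. The YY2 site that the paper tested, in the SLC7A11 promoter, lies farther upstream than this window and lacks CGCCAT on either strand.

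To address how expression of the pathway differed between YY2-overexpressing and control cells, the 12015 genes whose FPKM averaged 1 or more across the samples entered edgeR's quasi-likelihood test, and p values were adjusted over all of them by the Benjamini-Hochberg method. All 10 genes passed this filter on low values. They were chosen with earlier results of these data known, so the shares of all tested genes are given for scale only. SREBF1, SCD, FADS1, FASN and ACLY, 5 of the 10, were higher in pcYY2 than in pcCon at an adjusted p of 0.05 or less, where 4.52% of all tested genes were. None (0) was lower, where 4.85% of all tested genes were, and none was lower at an unadjusted p under 0.05, with DESeq2 or with limma either. The log2 fold change, always pcYY2 against pcCon, lay above 0 for all 10 genes, from 0.06 (ELOVL5) to 0.56 (SREBF1). Its median was 0.23, against 0.0020 over all tested genes. In 6 of the 10 every pcYY2 sample lay above every pcCon sample, as in 15.9% of all tested genes. The summed FPKM of the 10 genes averaged 553 ± 2.31 (SD, n = 3) in pcCon and 702 ± 11.2 in pcYY2, a ratio of 1.27. SCD alone averaged 308 in pcCon and 420 in pcYY2, most of these sums and of their difference.

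**Figure D1:**
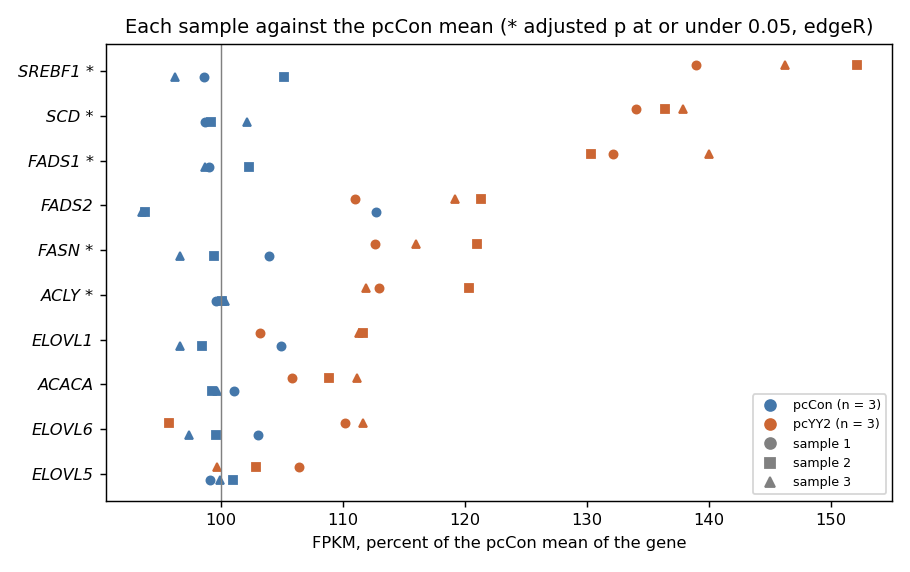
FPKM of each sample as a percentage of the pcCon mean of the same gene (horizontal axis) for the 10 genes, ordered by log2 fold change, with blue for pcCon, orange for pcYY2, circles, squares and triangles for samples 1 to 3 and an asterisk for genes past the threshold. For SREBF1, SCD and FADS1 the orange points lie far from the blue ones, for FASN, ACLY and ACACA the gap is small, and for FADS2 and the 3 elongases the groups overlap.

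SREBF1, the regulator of the pathway, had the highest log2 fold change of the 10 when each gene was counted on its own. In the coordinates of the table (GRCh38) it spans bases 17810399 to 17837002 of chromosome 17, minus strand. Its FPKM was 9.84, 10.5 and 9.60 in the pcCon samples and 13.9, 15.2 and 14.6 in the pcYY2 samples. The lowest pcYY2 sample was 32.1% above the highest pcCon sample. The log2 fold change was 0.56 (SE 0.0579, adjusted p = 0.00531), a 1.47-fold level, from 2285 to 7047 reads per sample. The gene overlaps RAI1 on the opposite strand, also in exons, and whether the counting used strand was not given. For RAI1 itself the log2 fold change was 0.05 (adjusted p = 0.652), and for the summed count of both genes the value was 0.39 (adjusted p = 0.0106), below that of SCD. The counts are per gene, so the transcripts for SREBP-1a and SREBP-1c were not separated.

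Of ACLY, ACACA and FASN, which carry citrate to palmitate, ACLY and FASN were higher in pcYY2 and ACACA did not pass the threshold. ACLY (chromosome 17 from 41866908 to 41930542) had an FPKM of 49.1, 49.4 and 49.5 in pcCon and of 55.7, 59.3 and 55.2 in pcYY2. The pcCon samples lay within a very narrow range, and all pcYY2 samples lay above it. The log2 fold change of ACLY was 0.22 (SE 0.0421, adjusted p = 0.0278). FASN (chromosome 17 from 82078333 to 82098332) had an FPKM of 130.1, 124.5 and 121.0 in pcCon and of 141.1, 151.5 and 145.3 in pcYY2. Its groups were 8.40% apart at their nearest samples, with a log2 fold change of 0.24 (SE 0.0427, adjusted p = 0.0235). ACACA (chromosome 17 from 37084988 to 37406818), the rate-limiting step, had an FPKM of 15.1, 14.8 and 14.9 in pcCon and of 15.8, 16.3 and 16.6 in pcYY2. Its groups did not overlap either, but the log2 fold change of 0.13 (SE 0.0378) did not pass the threshold (adjusted p = 0.0698). The 2 enzymes that passed did not keep their calls in every fit with 1 sample left out. In such fits 285 to 812 genes passed in all, against 1126 with all samples. The log2 fold change in these fits was 0.20 to 0.26 for FASN and 0.18 to 0.24 for ACLY. FASN had an adjusted p of 0.0850 without pcCon sample 2, 0.0831 without pcCon sample 3 and 0.0745 without pcYY2 sample 3. ACLY had 0.0878, 0.0960 and 0.0854 without pcCon samples 1, 2 and 3 and 0.0635 without pcYY2 sample 3.

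Of the desaturases, SCD and FADS1 rose and FADS2 did not pass the threshold. SCD (plus strand of chromosome 10 from 100347124 to 100364834) had an FPKM of 304, 306 and 315 in pcCon and of 413, 420.4 and 425 in pcYY2. The samples of each group lay close together (SD 5.75 and 5.93), and the groups were 31.3% apart at their nearest samples. The log2 fold change was 0.46 (SE 0.0298, adjusted p = 0.00125), a 1.37-fold level, and SCD ranked 12 by p among all tested genes. FADS1 (minus strand of chromosome 11 from 61799625 to 61829318) had an FPKM of 7.04, 7.28 and 7.02 in pcCon and of 9.40, 9.27 and 9.96 in pcYY2. All pcYY2 samples were at least 27.4% above the highest pcCon sample, and the log2 fold change was 0.44 (SE 0.0495, adjusted p = 0.00594). FADS2 (plus strand of chromosome 11 from 61792980 to 61867354), which catalyses the step before FADS1 in the synthesis of long polyunsaturated fatty acids, was the lowest of the 10 in level, with 275 to 696 reads per sample. Its FPKM was 1.42, 1.19 and 1.18 in pcCon and 1.40, 1.53 and 1.51 in pcYY2. Sample 1 of pcCon lay above sample 1 of pcYY2, so the groups overlapped, and the log2 fold change of 0.24 (SE 0.102) had an adjusted p of 0.169.

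FADS1 and FADS2 share bases in exons on opposite strands, and FADS2 also overlaps FEN1, a gene of DNA replication and repair. When FADS1 was summed with FADS2, its log2 fold change was 0.41 (adjusted p = 0.00627), close to its own value. For FADS2 summed with FADS1 and FEN1 the value was 0.32 (adjusted p = 0.00823), but FADS1 and FEN1 supplied most of its reads. FEN1 alone had 3417 to 8168 reads per sample and a log2 fold change of 0.26 (adjusted p = 0.0288).

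None of the elongases passed the threshold. ELOVL6, which lengthens palmitate, had an FPKM of 8.88, 8.59 and 8.40 in pcCon and of 9.50, 8.26 and 9.63 in pcYY2, so that pcYY2 sample 2 lay below all pcCon samples. Its log2 fold change was 0.10 (SE 0.0690, adjusted p = 0.408), and it was 0.16 without pcYY2 sample 2 and 0.06 without pcYY2 sample 3. ELOVL5, which lengthens polyunsaturated chains, had an FPKM of 23.2 to 23.6 in pcCon and of 23.3 to 24.9 in pcYY2, with a log2 fold change of 0.06 (SE 0.0459, adjusted p = 0.459), or 0.04 without pcYY2 sample 1. ELOVL1, which makes very long saturated chains, had an FPKM of 4.34 to 4.71 in pcCon and of 4.64 to 5.02 in pcYY2, with a log2 fold change of 0.14 (SE 0.0695, adjusted p = 0.249). These tests do not show that the elongases stayed at the same level.

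**Figure D2:**
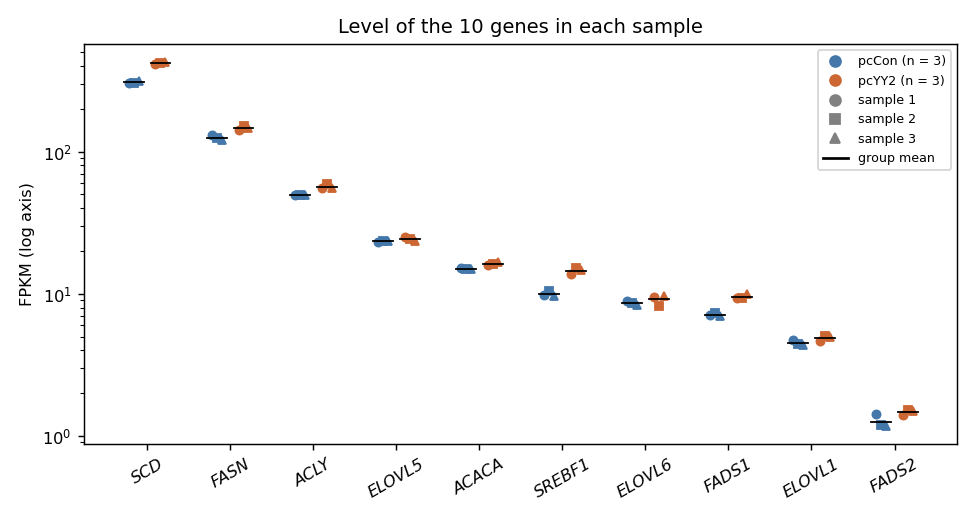
FPKM of the 10 genes (vertical axis, logarithmic) in the 3 pcCon samples (blue) and the 3 pcYY2 samples (orange), with symbols for samples 1 to 3 and black bars for the group means. The mean of pcCon spans from 308 for SCD to 1.26 for FADS2, and the differences between the groups are small beside the differences between genes.

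In level, SCD stood first with a mean FPKM of 308 in pcCon, followed by FASN (125), ACLY (49.3), ELOVL5 (23.4), ACACA (14.9), SREBF1 (9.98), ELOVL6 (8.62), FADS1 (7.11), ELOVL1 (4.49) and FADS2 (1.26). In pcCon no neighbours in this order overlapped in their samples. In pcYY2 the order was the same except for ELOVL6 and FADS1, whose samples overlapped. SCD made up 55.8% ± 0.949 (SD, n = 3) of the summed FPKM of the 10 genes in pcCon and 59.8% ± 0.548 in pcYY2. FASN made up 22.7% ± 0.833 and 20.8% ± 0.463. Whether genes of the pathway differed in their change was examined with the FPKM ratio of 5 pairs within each sample, using exact two-sided permutation tests, which cannot give a p below 0.1 with 3 samples against 3. The ratio of SCD to FASN was 2.34 to 2.60 in pcCon and 2.77 to 2.93 in pcYY2 (exact p = 0.1, adjusted over the 5 ratios 0.167). The ratio of SCD to ELOVL6 was 34.2 to 37.5 and 43.5 to 50.9, and that of FASN to ACACA 8.12 to 8.62 and 8.75 to 9.31, with the same p values. The ratio of FADS1 to FADS2 overlapped, with 4.94 to 6.14 in pcCon and 6.05 to 6.70 in pcYY2 (exact p = 0.2, adjusted 0.25). So did the ratio of SCD to SREBF1, with 29.1 to 32.8 and 27.7 to 29.8 (exact p = 0.3, adjusted 0.3).

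**Figure D3:**
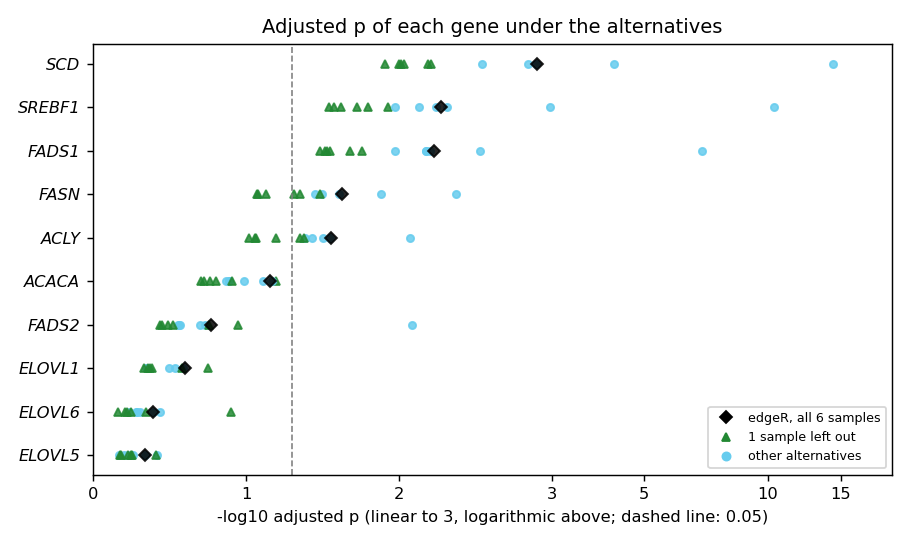
Adjusted p of each of the 10 genes as -log10 (horizontal axis, linear up to 3 and logarithmic above, dashed line at 0.05) in the edgeR test on all samples (black), with 1 sample left out (green) and with other filters, scaling, tools or summed counts (light blue). SCD, SREBF1 and FADS1 stay to the right of the line in all the fits plotted, and FASN and ACLY lie on both sides of it. FADS2 crosses it once, when its count is summed with FADS1 and FEN1. The alternative that also took the sample numbers into account is not plotted. There SCD and SREBF1 passed (adjusted p = 0.0306 and 0.0366), and FADS1 did not (0.0532).

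The genes that control SREBP were also examined. None (0) of the 6 passed the threshold with edgeR or limma. At an unadjusted p under 0.05, which 28.9% of all tested genes had, 1 was higher and 2 were lower, and with DESeq2 1 was higher and 1 lower. The median of their log2 fold changes was -0.05. SREBF2, the paralogue that chiefly drives sterol synthesis, had an FPKM of 17.1 ± 0.514 (SD, n = 3) in pcCon and of 17.6 ± 0.736 in pcYY2 (log2 fold change 0.05, SE 0.0510, adjusted p = 0.571). With 1 sample left out it lay between 0.02 (without pcYY2 sample 2) and 0.08 (without pcYY2 sample 1). SCAP had a log2 fold change of -0.08 (SE 0.0788, adjusted p = 0.525), which was -0.01 without pcYY2 sample 1 and -0.16 without pcYY2 sample 2. MBTPS1 had one of -0.16 (SE 0.0632, adjusted p = 0.148). MBTPS2, within which YY2 lies on the same strand, had one of -0.02 (SE 0.0714, adjusted p = 0.897). The INSIG genes diverged in value. INSIG1, itself a known SREBP target, had an FPKM of 3.45, 6.59 and 3.82 in pcCon and of 7.45, 7.71 and 7.31 in pcYY2. Sample 2 of pcCon stood near the pcYY2 samples and the other 2 far below them. The log2 fold change of 0.71 (SE 0.230) had an adjusted p of 0.0959. Without pcCon sample 2 it was 1.06 with an adjusted p of 0.00878, and with DESeq2 on all samples the adjusted p was 0.00838. INSIG2 had an FPKM of 2.28, 1.63 and 2.06 in pcCon and of 1.25, 1.01 and 1.61 in pcYY2. The lowest pcCon sample lay just above the highest pcYY2 sample, and the log2 fold change of -0.62 (SE 0.200) had an adjusted p of 0.0951, or 0.0359 with DESeq2.

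Of 144 further genes of lipid metabolism in 11 lists, the 6 genes above included, 122 were tested. At an adjusted p of 0.05 or less, 11 of them (9.02%) were higher and 5 (4.10%) were lower in pcYY2, where 4.52% and 4.85% of all tested genes were. The share of lower genes was thus near that of all genes, and the counts of the single lists below are small. Of the 11 higher genes, 5 belonged to the list of sterol synthesis and uptake, which held 22 of the 122 tested genes. In the supply of acetyl-CoA and malonyl-CoA, SLC25A1, the mitochondrial citrate carrier that feeds ACLY, was the only one of 5 tested genes to pass. It had an FPKM of 16.5, 17.9 and 17.3 in pcCon and of 22.3, 23.3 and 22.6 in pcYY2, a log2 fold change of 0.41 (SE 0.0535, adjusted p = 0.00918). Among genes that supply NADPH, the reductant of fatty acid synthesis, IDH1, the cytosolic isocitrate dehydrogenase, fell by 0.33 on the log2 scale (SE 0.0740, adjusted p = 0.0415). IDH1 passed without pcYY2 sample 2 (0.0395) and not without any of the others (0.0588 to 0.114).

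Among 8 tested genes of other desaturases and their electron donors, CYB5R3, a reductase that passes electrons to cytochrome b5, rose by 0.33 (SE 0.0579, adjusted p = 0.0211). SCD5, the second human stearoyl-CoA desaturase, fell from an FPKM of 9.88 ± 0.279 (SD, n = 3) to 7.45 ± 0.467, a log2 fold change of -0.39 (SE 0.0709, adjusted p = 0.0235). SCD5 thus had the opposite sign to SCD, and its samples in pcYY2 all lay below those in pcCon. CYB5R3 passed without pcYY2 sample 1 and SCD5 without pcYY2 sample 2. Without any other sample the adjusted p was 0.0533 to 0.0737 for CYB5R3 and 0.0519 to 0.0832 for SCD5. Of the elongation cycle none (0) of 7 tested genes passed with edgeR, DESeq2 or limma. At an unadjusted p under 0.05, which 28.9% of all tested genes had in either direction, 3 were higher and 1 lower. ELOVL2, ELOVL4 and TECRL had no read in any sample. In mitochondrial fatty acid synthesis, a separate pathway that yields lipoic acid precursors, OXSM, its condensing enzyme, was the only one of 7 tested genes to pass. OXSM was higher, as were 4.52% of all tested genes. Its FPKM was 1.24, 1.23 and 1.21 in pcCon and 2.95, 3.08 and 2.71 in pcYY2, a log2 fold change of 1.26 (SE 0.0927, adjusted p = 0.0017), from 121 to 603 reads per sample.

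Of 15 other tested regulators of lipogenesis, LPIN1 alone passed, where 4.52% of all tested genes were higher and 4.85% lower. A count of 1 in a list of this size is near that share. LPIN1, a phosphatidate phosphatase and coregulator known as an SREBP target, had an FPKM of 1.30, 1.33 and 1.25 in pcCon and of 2.29, 2.24 and 2.05 in pcYY2, a log2 fold change of 0.77 (SE 0.0699, adjusted p = 0.00314). Of 9 tested genes for AMPK, the kinase that inhibits acetyl-CoA carboxylase, and for its activating kinases, PRKAG2, a regulatory subunit, fell by 0.36 on the log2 scale (SE 0.0804, adjusted p = 0.0390). It did not pass whichever sample was left out, with an adjusted p between 0.0748 and 0.120. None (0) of 15 tested genes of triglyceride synthesis and lipid droplets passed with edgeR or limma. With DESeq2 1 was lower, and at an unadjusted p under 0.05 1 was higher and 3 were lower, a share near the 28.9% of all tested genes with such a p. In fatty acid oxidation, 2 of 22 tested genes rose and 1 fell, the latter count being near the share of all tested genes. These were ACADVL, a dehydrogenase of very long chains (0.44, SE 0.0546, adjusted p = 0.00828), CPT1B, a carnitine palmitoyltransferase (0.68, SE 0.103, adjusted p = 0.0141), and HADHB, a subunit of the mitochondrial trifunctional protein (-0.21, SE 0.0496, adjusted p = 0.0460, and 0.0847 to 0.133 with a sample left out). Overlaps of CPT1B with other genes were not examined. The median log2 fold change of the oxidation genes was -0.12, with 4 of 22 above 0, as against 50.3% of all tested genes.

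**Figure D4:**
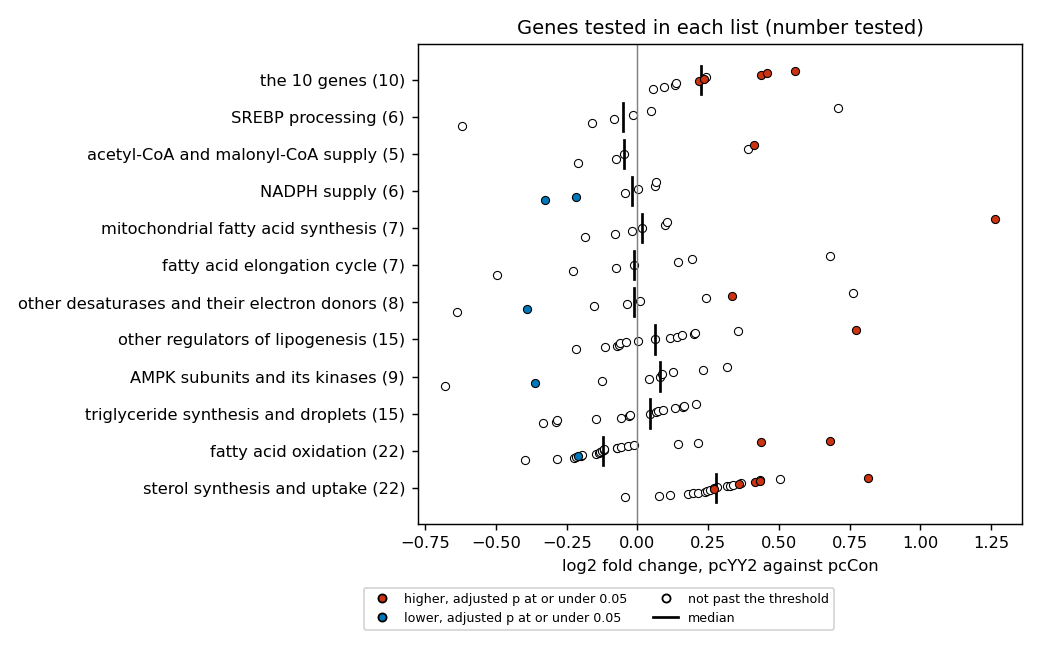
Log2 fold change of pcYY2 against pcCon (horizontal axis) for each tested gene of the 10 genes and of the 11 further lists (rows, number tested in brackets), with red for genes higher and blue for genes lower past the threshold, white for the others and a black bar for the median. The medians of the 10 genes (0.23) and of the sterol genes (0.28) lie to the right of 0, and those of the other lists lie between -0.12 and 0.08.

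Genes of sterol synthesis and uptake, which SREBP also drives, were compared as the nearest neighbour of the pathway. Of 22 tested genes, 5 were higher with edgeR, 10 with DESeq2 and 4 with limma, and 14 had an unadjusted p under 0.05 and a higher level. None (0) was lower by any of these. Of all 12015 tested genes, edgeR called 4.52% higher and 4.85% lower. In either direction, DESeq2 called 1419 of them, limma called 1024, and 28.9% had an unadjusted p under 0.05. Among the sterol genes higher with edgeR were FDPS (log2 fold change 0.43, adjusted p = 0.00552), IDI1 (0.42, adjusted p = 0.0159), LSS (0.36, adjusted p = 0.0333) and MSMO1 (0.27, adjusted p = 0.0414), the last named after its value was seen. FDPS passed whichever sample was left out. IDI1 did not pass without pcCon sample 1, 2 or 3 (adjusted p of 0.0609, 0.0534 and 0.0581). LSS passed only without pcYY2 sample 1 (0.0362). The median of the 22 sterol genes was 0.28, and 21 of the 22 values lay above 0, as did 50.3% over all tested genes. In 13 of them all pcYY2 samples lay above all pcCon samples, as in 15.9% of all tested genes. Whether the sterol genes and the fatty acid genes differed in their change was not tested. The sterol list, too, was chosen with earlier results of these data known.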

How the data were processed

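RNA-Seq was analysed for 3 pcCon and 3 pcYY2 samples of HCT116 cells. Per the methods, the authors cleaned the reads and mapped them to GRCh38 with TopHat; the processing notes of the submitters also name Bowtie2 and HTSeq. The authors deposited raw read counts per gene, and the counting tool, annotation release and use of strand were not given in the sources used here. The authors also deposited FPKM, which matched the count over the sample total times a constant for each gene, to within 0.0019% over 12107 genes. Total counts limited the precision: 3 counts, taken as the floor, corresponded to 0.101 to 0.198 CPM, which covers counting error only.

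Genes averaging an FPKM of 1 or more were tested with edgeR 4.0.16 (quasi-likelihood, TMM, R 4.3.3), and an adjusted p (Benjamini-Hochberg) of 0.05 or less was the threshold, the FDR in the methods. The SE was taken from the F statistic and the log2 fold change. Alternatives were other filters, upper quartile scaling, DESeq2 1.42.0, limma 3.58.1 with trend on log2(FPKM + 1), the replicate number as a block, leaving out each sample, and summing the count of a member with the genes of the table that overlap it. Overlaps (GENCODE 44) were examined for the 10 genes and YY2. The tests were tried on simulated counts. The labels do not say whether the samples were separate cultures, so p values measure the spread between these samples, which may be technical. No pair of samples was identical. The genes and lists were chosen with earlier results of these data known. Named are the 10 genes, YY2, the 6 SREBP processing genes, and at most the 4 genes with the smallest p among those past the threshold in each other list. Some of these are not reported here.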

Additional observations from a re-analysis of the deposited data

How the results depend on the processing

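All 10 genes kept a log2 fold change above 0 in every alternative. Of the 10, 5 rose in all 5 alternatives that changed the filter, the scaling or the tool, and 7 had an unadjusted p under 0.05, as had 28.9% of all tested genes. With 1 sample left out, 3 to 5 rose (3 without pcCon sample 2, pcCon sample 3 or pcYY2 sample 3), and none fell in any alternative. With the replicate number as a block (replicate block), 2 rose, SCD (adjusted p = 0.0306) and SREBF1 (0.0366), while FADS1 (0.0532), FASN (0.0821) and ACLY (0.0834) did not pass. The block moved the genes called among all those tested from 1126 to 101, and leaving out 1 sample moved them to between 285 and 812. The numbers were not taken as a pairing, because the methods name none. Samples with the same number did not deviate together (correlations of -0.021 to 0.0255 across genes, other pairs -0.0412 to 0.0532). With 3 samples per group this is a weak check. Of the other lipid genes, the count of 11 higher was 18 with DESeq2, 3 with the replicate block, 30 at an unadjusted p under 0.05 and 6 to 11 with 1 sample left out (6 without pcCon sample 3, 7 without pcYY2 sample 2 or 3). The count of 5 lower was 1 with a filter at a mean FPKM of 0.1, 2 with no filter, 8 with DESeq2, 0 with the replicate block, 18 at an unadjusted p under 0.05 and 0 to 3 with 1 sample left out, whichever it was. Over all genes tested in each fit, in either direction, 908 passed with the filter at 0.1, 920 with no filter and 1419 with DESeq2. The cause of these moves was not tested. MBTPS2, near 0, changed sign to 0.0048 with the filter at 0.1, 0.00079 without pcCon replicate 1 and 0.0303 without pcYY2 replicate 3, within a range of -0.0574 to 0.0303 with 1 sample left out. FADS2, with the fewest reads of the 10 genes, also had the largest SE (0.102).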
